A study of Homo sapiens with 32 samples.

Results

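The clustered protocadherins are 53 of the 28278 gene symbols in the count tables of this Ewing sarcoma series, taken by name as every row for an alpha, beta, gamma A, gamma B or gamma C protocadherin of the chromosome 5 locus. They comprise 15 alpha members, 16 beta members, 12 gamma A members, 7 gamma B members and 3 gamma C members, and the same 53 genes were found by Ensembl identifier in the knockdown table, which has 60199 rows. A673, SK-N-MC and A4573 are Ewing sarcoma cell lines, and RNA was sequenced after oligo(dT)-primed library preparation. A673 carrying a doxycycline-inducible Cas9 at the AAVS1 locus, 1 clone called the WT clone, was the source of the STAG2 KO, STAG1 KO, EZH2 KO and SUZ12 KO clones, so all KO clones share that insertion and that founder clone, while the parental A673 libraries do not. Experiment 1 held 2 WT clone libraries, 1 parental library and 2 STAG2 KO clones. Experiment 2 held 2 WT clone libraries, 1 parental library, 3 STAG2 KO clones, 3 EZH2 KO clones and 3 SUZ12 KO clones. Experiment 3 held 1 WT clone library, 1 parental library and 3 STAG1 KO clones. In experiment 4, A673 with the genotype label WT was mock transfected (3 control libraries, siC) or transfected with siRNA against STAG2 (3 siSTAG2 libraries). SK-N-MC, which has STAG2, was compared with 1 STAG2 KO clone, and A4573, which lacks STAG2, with 1 line in which STAG2 was restored by editing (STAG2 KI), with 1 library each, and all 4 of these are labelled iCas9. Treatment times and the culture each library came from are not given in the labels, so p-values measure the spread between these libraries. Within an experiment the KO libraries carry separate clone numbers, and the WT clone libraries may be technical repeats. The number 5 heads a STAG2 KO library in both experiment 1 and experiment 2, while the sample titles give different clone numbers. Whether these 2 libraries come from the same clone is not given, so the 5 STAG2 KO libraries may not be 5 separate clones.

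Clustered protocadherins are cell surface adhesion proteins best known from neurons, in which each cell uses a few of them and homophilic binding lets a neurite tell its own branches from those of other cells. Each alpha or gamma member has its own promoter and first exon, spliced to constant exons that the whole cluster shares, whereas each beta gene is a single exon. Promoter choice is known to depend on CTCF bound at the promoters and at distal enhancers and on cohesin, the ring complex that extrudes DNA loops. STAG2 and STAG1 are the alternative subunits of that ring, and EZH2 and SUZ12 are subunits of the Polycomb repressive complex that methylates histone H3 at lysine 27.

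On GRCh38 the alpha cluster lies at chr5:140786136-141012347, the beta cluster at chr5:141051374-141249365 and the gamma cluster at chr5:141330514-141512977, all on the plus strand (GENCODE 44). The 15 alpha members share 2869 exonic bases and the 22 gamma members share 2177, while no exonic base is shared by the beta members. The exonic bases that belong to no other member run from 2459 (PCDHGB4) to 12653 (PCDHA10) per gene. How reads in the shared exons were assigned is not given in the sources used here. PCDHA9 had at most 5 reads in any of the 26 count libraries, so those reads were not added to every alpha member. The study describes non-directional libraries, which do not mark strand. The headers of the knockdown libraries carry the letters FWD, whose meaning is not given. On the opposite strand 1 or more genes overlap several members (PCDHB6 and PCDHB7 both overlap the antisense gene ENSG00000272154). In libraries that do not mark strand, reads of such pairs cannot be told apart. Up to 5 alignments per read were allowed by the authors, so counts of closely related members are uncertain to that extent.

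Promoter sequence is shown for members that the comparisons turn on, because many promoters of this locus, though not all, carry an element that CTCF reads. Windows from 250 bases before to 50 bases after the start site were found in RefSeq (GRCh38.p14) for 47 of the 53 members, as 52 windows, and all 52 are identical to the hg38 sequence; PCDHB6 is not among them. The 4 letters CGCT, the core of the conserved protocadherin promoter element, were present in 51 of the 52 windows and in 70% of all 35116 promoters of the same length on either strand. Longer strings built round CGCT were rare among all promoters. ATGTCGCT was found in 9 of 13 alpha genes with a window and in 0.234% of all promoters. GGTGGCGCT was found in 13 of 14 beta genes and in 0.501% of all promoters. A gamma form, CGCT followed by GT, any 3 bases and CCAA, was found in 4 of 11 gamma A genes, 3 of 7 gamma B genes, 2 of 2 gamma C genes and 1 alpha gene (PCDHA8), and in 0.0826% of all promoters. Each of these strings contains CGCT, both strands were searched, and the member windows are part of the set of all promoters. In the sequences below, read 5′ to 3′ on the plus strand, the capitals mark CGCT.
PCDHGC3, chr5:141475876-141475919: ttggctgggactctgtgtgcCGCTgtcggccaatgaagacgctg
PCDHGB5, chr5:141397859-141397902: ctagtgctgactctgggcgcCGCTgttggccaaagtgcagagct
PCDHGA6, chr5:141373831-141373874: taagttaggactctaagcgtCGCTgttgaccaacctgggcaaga
PCDHGA11, chr5:141420968-141421011: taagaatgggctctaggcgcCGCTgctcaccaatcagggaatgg
PCDHAC1, chr5:140926265-140926308: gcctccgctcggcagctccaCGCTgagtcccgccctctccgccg
PCDHA10, chr5:140855837-140855880: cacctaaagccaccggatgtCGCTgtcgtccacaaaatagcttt
PCDHB8, chr5:141177773-141177816: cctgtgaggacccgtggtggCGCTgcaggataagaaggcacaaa
PCDHB16, chr5:141182306-141182349: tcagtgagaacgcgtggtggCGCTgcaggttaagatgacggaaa
PCDHB7, chr5:141172562-141172605: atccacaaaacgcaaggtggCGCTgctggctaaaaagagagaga
PCDHB2, chr5:141094540-141094583: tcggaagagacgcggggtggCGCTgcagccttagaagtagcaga
The PCDHGC3, PCDHGB5 and PCDHGA6 windows hold the gamma form, PCDHA10 holds ATGTCGCT, and the 4 beta windows hold GGTGGCGCT. PCDHGA11 and PCDHAC1, which appear beside them in the comparisons, hold CGCT without any of the longer strings. For these 2 genes the last CGCT before the end of the promoter window is shown. In PCDHGA11 the bases that follow differ from the gamma form at 1 base, C in place of T in GT. In PCDHAC1 nothing else marks this CGCT as the conserved element.

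The 22 A673 clone libraries held between 15734628 and 20663679 counts, of which 4458 to 12225 fell in the 53 members (0.0244 to 0.0643%). The 6 knockdown libraries held 6852340 to 8184632 recovered reads with 588 to 873 in members, and the 4 isogenic libraries 29322507 to 32261248 counts with 3165 to 11167 in members. STAG2 mRNA was 42.2 to 183 CPM (counts scaled to a common library size, with TMM factors) in the 5 STAG2 KO libraries and 255 to 358 in the 6 controls of experiments 1 and 2, with the highest KO value in the experiment 1 library numbered 24. STAG1 mRNA was 61.1, 15 and 33 CPM in the libraries labelled STAG1 KO, numbered 1, 5 and 7, against 57.4 in the WT clone and 69.1 in the parental library of experiment 3, so the first lay within the controls, and STAG1 was not called (log2 fold change −0.80, adjusted p = 0.376, edgeR). EZH2 mRNA was 28.3 to 54.9 CPM in EZH2 KO and 171 to 193 in controls, and SUZ12 mRNA was 11.3 to 20.5 CPM in SUZ12 KO and 59.9 to 66.6 in controls. CPM of the A673 clone libraries were scaled together, and those of the 4 isogenic libraries apart from them.

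In the A673 clone libraries a small set of the locus led. Per kilobase of own exon, the mean level over the 8 control libraries of experiments 1 to 3 was highest for PCDHGC3, a C-type gamma member, at 30 ± 8.22 CPM (SD, n = 8). PCDHGB5 followed at 16.6 ± 3.75 and PCDHGA11 at 15.8 ± 1.30 CPM per kilobase, which did not differ beyond their spread. PCDHB2 at 8.65 ± 2.20 and PCDHB5 at 8.53 ± 3.23 formed the next pair, also within their spread, and PCDHGA6 was at 5.88 ± 1.89. PCDHA6 at 3.37 ± 0.722, PCDHB6 at 3.33 ± 0.659 and PCDHB16 at 3.22 ± 0.378 lay close together. At the other end PCDHA9 had 0.00306 and PCDHB1 0.00409 CPM per kilobase. This order holds for the clone libraries only. In the A673 knockdown libraries PCDHGC3 and PCDHGA11 were at 0 to 4.17 normalised reads and PCDHGB5 at 0 to 1.93. PCDHGA6 was at 30.21 to 41.94 there, and the cause of the difference was not tested. Within subfamilies the leading member by counts, not scaled for exon length, was nearly the same in every A673 clone group. PCDHA10 has 12653 own exonic bases, the most of any member. Per kilobase it was at 1.58 CPM in the controls, below PCDHA6, PCDHAC2 (2.49), PCDHA11 (2.40) and PCDHA12 (2.06). In each of the 22 libraries the alpha cluster was led by PCDHA10 (23.7 to 36.6% of its counts), gamma A by PCDHGA11 (42.4 to 67.3%) and gamma B by PCDHGB5 (65.8 to 82.9%), and the beta cluster was led by PCDHB2 except in the parental library of experiment 2, where PCDHB5 led with 30.8%.

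SK-N-MC and A4573 shared leading members with A673 and lacked others. In the SK-N-MC library with STAG2 the highest level per kilobase was that of PCDHB5 at 22.7 CPM, followed by PCDHB16 at 8.78 and PCDHGC3 at 8.05. In the A4573 STAG2 KI library PCDHGC3 led at 10.2 CPM per kilobase, followed by PCDHB2 at 3.07 and PCDHB16 at 1.60. PCDHB5 was at 88.1 and 77.4 CPM in the 2 SK-N-MC libraries and at 0.159 and 0.133 CPM in the 2 A4573 libraries. PCDHGA11 was at 50.8 to 65.5 CPM in A673 controls, at 3.34 CPM in SK-N-MC with STAG2 and at 0.191 CPM in A4573 STAG2 KI.

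The first comparison asked how the locus changed when A673 lost STAG2. Of the tested members, 4 of 15 gamma and 1 of 10 alpha members fell and 4 of 15 beta members rose. PCDHGC3, PCDHGA11, PCDHAC1, PCDHGA6 and PCDHGB5 were lower in STAG2 KO than in the controls, and PCDHB6, PCDHB8, PCDHB16 and PCDHB7 were higher. Of the 40 members that passed the filter on low counts, 9 were called at an adjusted p under 0.05 (edgeR quasi-likelihood test over 13574 genes, with experiment as a term), against 12.4% of all genes tested, 6.67% called higher and 5.76% called lower. By subfamily the calls were 1 of 10 tested alpha members (lower), 4 of 15 beta members (higher), 2 of 8 gamma A members (lower), 1 of 5 gamma B members (lower) and 1 of 2 gamma C members (lower). At an unadjusted p under 0.05 there were 17. DESeq2 called 11, beside 2652 of 17232 genes in all. The median log2 fold change was 0.30 over tested alpha, 0.24 over beta, −0.35 over gamma A, −0.68 over gamma B and −0.93 over gamma C members, beside 0.041 over all genes tested.

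**Figure D1:**
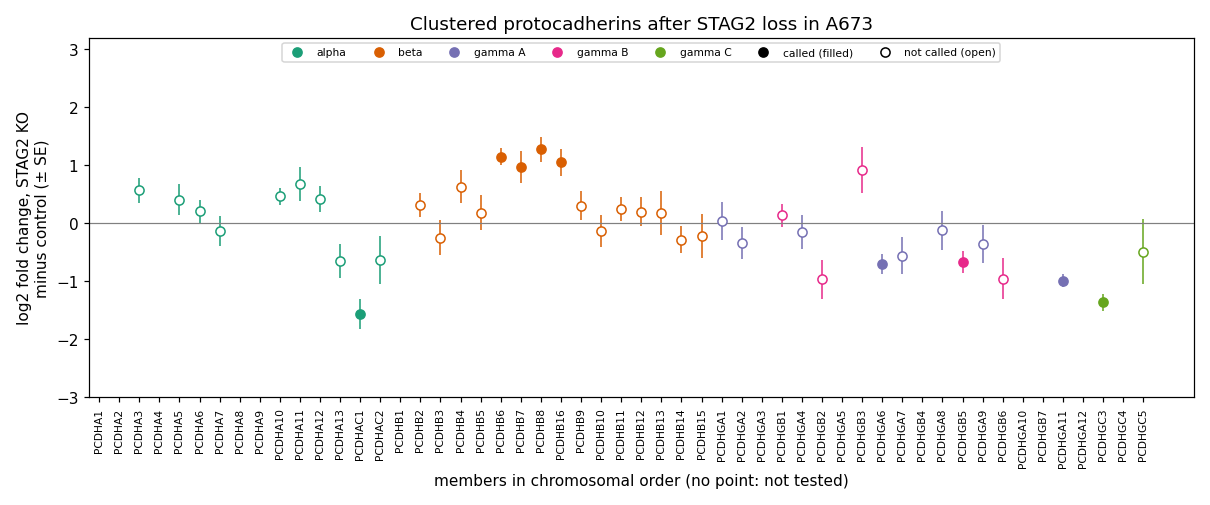
The log2 fold change (vertical axis, STAG2 KO minus control, bars ± SE) of the 40 tested members in their order along the locus, coloured by subfamily, filled where called. The 4 called beta members stand side by side from PCDHB6 to PCDHB16 and lie above 0, and the 5 called alpha and gamma members lie below 0.

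PCDHGC3 was the most abundant member in the A673 clone controls and the only gamma C member expressed above a few CPM there. It was at 99.3, 89.3 and 71.6 CPM in the controls of experiment 1. In those of experiment 2 it was at 97.3, 92.2 and 62.0 CPM. In STAG2 KO it was at 40.4 and 35.4 CPM in experiment 1 and at 31.0, 28.4 and 24.5 CPM in experiment 2. The groups did not overlap, and within each experiment the lowest control value was that of the parental cells. The log2 fold change was −1.37 (SE 0.147, adjusted p = 0.000255, edgeR), and it was −1.19 within experiment 1 and −1.53 within experiment 2.

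PCDHGA11, the leading gamma A member, was at 54.2 to 59.0 CPM in the 3 controls of experiment 1 and at 50.8 to 56.7 CPM in those of experiment 2. It was at 34.2 and 26.9 CPM in the STAG2 KO libraries of experiment 1 and at 28.2, 24.7 and 19.6 CPM in those of experiment 2. Every KO value lay below every control value. The log2 fold change was −0.99 (SE 0.114, adjusted p = 0.000361, edgeR), with −0.87 and −1.12 within the experiments.

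PCDHAC1, a C-type alpha member, was at 7.54, 8.06 and 5.23 CPM in controls of experiment 1 and at 4.76, 3.89 and 3.82 CPM in controls of experiment 2. In STAG2 KO PCDHAC1 was between 1.32 and 2.25 CPM in all 5 libraries, with no overlap. Its log2 fold change was −1.57 (SE 0.261, adjusted p = 0.00316, edgeR). Within experiment 2 alone the fold change of PCDHAC1 was −1.29 and its adjusted p = 0.0713 missed the threshold.

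PCDHGA6 was at 39.5, 38.2 and 27.8 CPM in the controls of experiment 1, at 26.0, 25.6 and 18.9 CPM in those of experiment 2 and at 14.5 to 17.5 CPM in STAG2 KO. The KO libraries were close to each other, and it was the controls that differed between experiments. This gave a log2 fold change of −0.70 (SE 0.170, adjusted p = 0.02, edgeR), and −0.46 within experiment 2 with adjusted p = 0.225. PCDHGB5, the leading gamma B member, was at 36.0 to 60.9 CPM in controls and at 41.9, 25.0, 27.1, 25.1 and 15.3 CPM in STAG2 KO. Its groups overlapped, through the experiment 1 KO library numbered 24 at 41.9 CPM. Its log2 fold change was −0.68 (SE 0.188, adjusted p = 0.0375, edgeR), and the call was missed under 11 of 20 alternative settings, either experiment alone among them.

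PCDHB6 was at 13.1 to 13.2 CPM in the controls of experiment 1 and at 7.65 to 9.92 CPM in those of experiment 2. It was at 28.2 and 23.8 CPM in the STAG2 KO libraries of experiment 1 and at 24.1, 22.4 and 15.7 CPM in those of experiment 2. All 5 KO libraries lay above all 6 controls. Between the groups the log2 fold change was 1.15 (SE 0.147, adjusted p = 0.000716, edgeR), with 0.99 and 1.25 within the experiments.

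PCDHB8 was at 3.27 to 4.93 CPM in controls and at 10.4, 13.8, 7.89, 8.97 and 6.26 CPM in STAG2 KO, with no overlap. Its log2 fold change was 1.27 (SE 0.217, adjusted p = 0.00363, edgeR). PCDHB16, which lies between PCDHB8 and PCDHB9, was at 11.2 to 14.4 CPM in controls and at 22.6, 40.2, 27.3, 27.2 and 12.5 CPM in KO. The KO clone numbered 5 in experiment 2, at 12.5 CPM, lay within the controls. The log2 fold change of PCDHB16 was 1.05 (SE 0.230, adjusted p = 0.0129, edgeR). PCDHB7 was at 1.11 to 1.64 CPM in controls and at 3.11, 4.10, 2.21, 2.20 and 1.25 CPM in KO, and the same clone was the one within the controls. The log2 fold change of PCDHB7 was 0.97 (SE 0.273, adjusted p = 0.0395, edgeR), and the call was missed under 14 of 20 alternative settings.

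**Figure D2:**
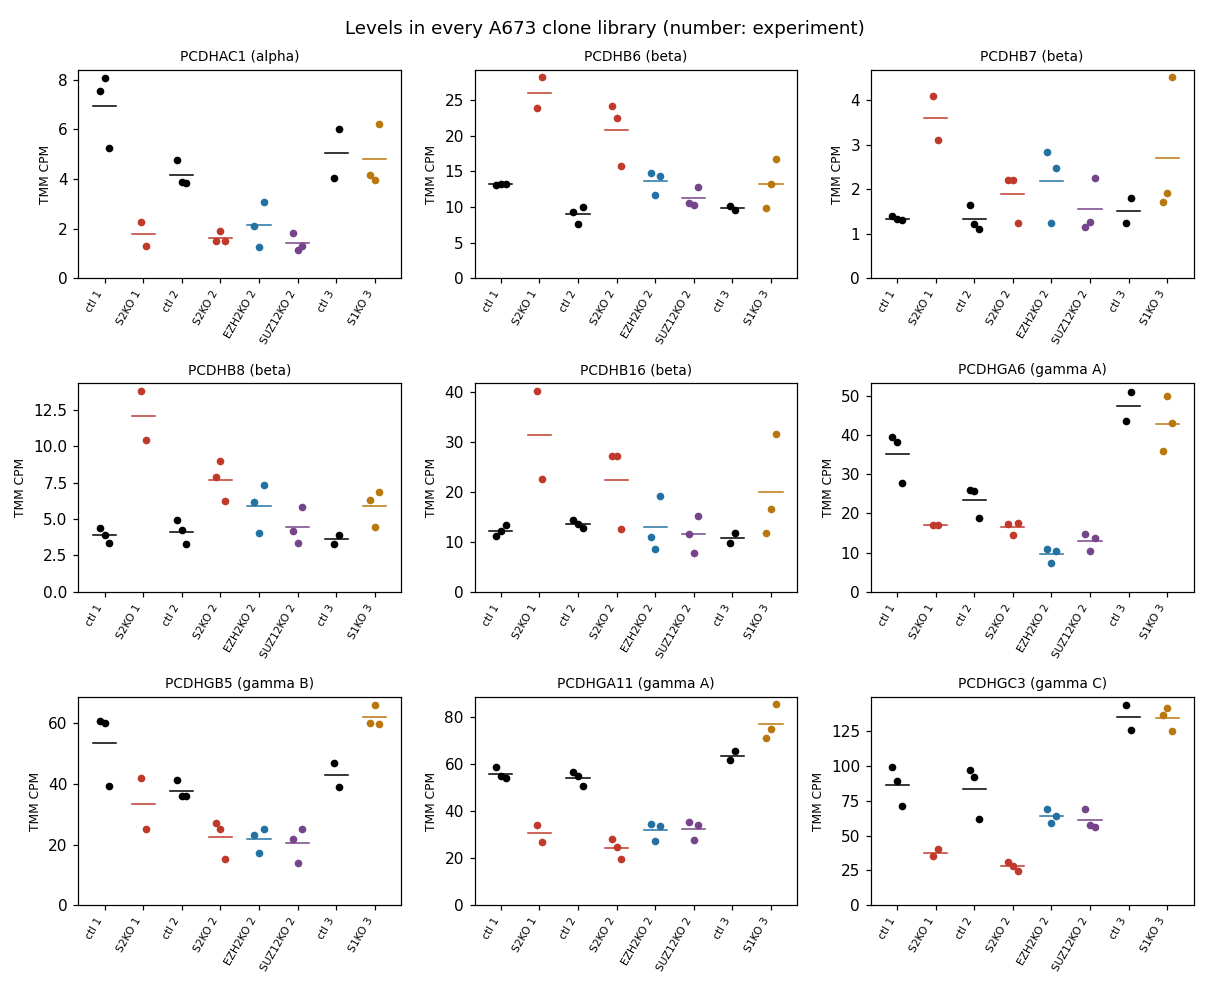
TMM-scaled CPM (vertical axes, from 0) of the 9 members called after STAG2 loss in each of the 22 A673 clone libraries, with a bar at each group's mean; the number after a group name is its experiment, ctl is WT clone plus parental, S2KO and S1KO are STAG2 KO and STAG1 KO. PCDHGC3 and PCDHGA11 are lower in all 5 STAG2 KO libraries than in any control and PCDHB6 is higher, while PCDHGC3 is at 125 to 142 CPM in STAG1 KO beside 126 and 144 CPM in the experiment 3 controls.

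The other leading members were not called. PCDHA10, the most abundant alpha member by CPM, had a log2 fold change of 0.46 (SE 0.146, adjusted p = 0.0638, edgeR), and PCDHB2, the most abundant beta member, 0.31 (SE 0.209, adjusted p = 0.387). PCDHAC2 had −0.64 (SE 0.417, adjusted p = 0.371) with KO values from 1.35 to 8.92 CPM. PCDHGC5 had −0.49 (SE 0.561, adjusted p = 0.638), and PCDHGC4, a C-type member at 0.157 to 0.345 CPM in KO and 0.369 to 0.777 CPM in controls, was under the filter and not tested. The STAG2 KO clone numbered 5 of experiment 2 stood apart from the other 4 KO libraries. Its summed alpha level was 57.8 CPM against 76.0 to 89.4 in the others and its summed beta level 99.0 CPM against 179 to 229, and without it 16 members were called, 10 higher and 6 lower, while the calls over all genes rose from 1687 of 13574 to 4048 of 13670. Experiment 1 alone called 13 members (8 higher, 5 lower, with 25.9% of all genes called, 12% higher and 13.9% lower) and experiment 2 alone called 3, PCDHB6, PCDHGA11 and PCDHGC3 (3.69% of all genes, 1.83% higher and 1.86% lower). Those 3 members were called in all 20 alternative settings and left-out libraries that were run.

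Summed over subfamilies, the gamma C level was 26.5 to 42.6 CPM in STAG2 KO and 63.3 to 101.6 CPM in controls (log2 ratio of means within experiments −1.37), and the gamma A level was 46.2 to 57.7 against 79.7 to 113.5 CPM (−0.87). Neither overlapped. The gamma B sum was 23.2 to 59.0 against 45.7 to 74.1 CPM (−0.51), the beta sum 99.0 to 229 against 113 to 162 CPM (0.44) and the alpha sum 57.8 to 89.4 against 66.7 to 77.1 CPM (0.19), and these 3 overlapped. In bulk RNA, fewer cells using a member and less RNA of that member per cell cannot be told apart.

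**Figure D3:**
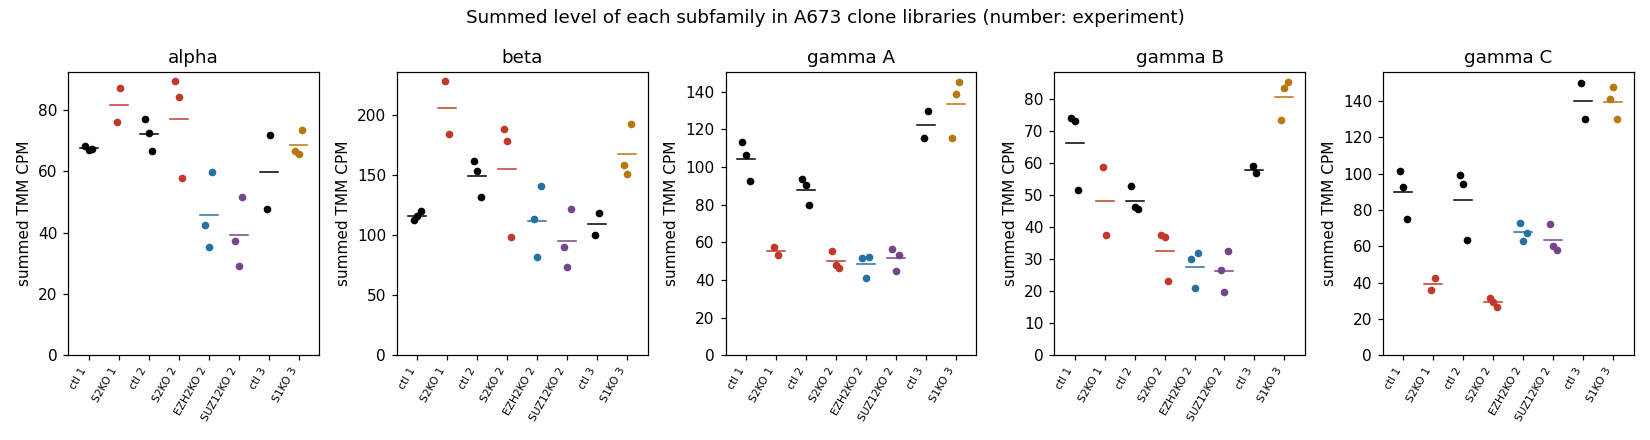
Summed TMM-scaled CPM (vertical axes, from 0) of each subfamily in each A673 clone library, with a bar at the group mean and the experiment number after the group name. Gamma A and gamma C are lower in the 5 STAG2 KO libraries than in the controls, while the gamma C sums of STAG1 KO (130 to 148 CPM) lie within the range of the experiment 3 controls (130 to 150 CPM).

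Loss of STAG1, the other ring subunit, was measured in experiment 3 against 1 WT clone library and 1 parental library. Of 41 tested members 1 was called, PCDHB2, beside 5.27% of all genes tested, 2.77% higher and 2.5% lower (edgeR over 14373 genes). At an unadjusted p under 0.05 there were 10 members. DESeq2 called 2, beside 1941 of 16479 genes in all. PCDHB2 was at 46.7, 50.9 and 48.3 CPM in the libraries labelled STAG1 KO and at 27.8 and 30.8 CPM in controls, a log2 fold change of 0.73 (SE 0.103, adjusted p = 0.0268, edgeR). The call was lost without either control, where 0 genes of all those tested were called and 1 control library remained, and without KO library 5 or 7, where 264 and 326 genes were called in place of 757. The log2 fold change of PCDHB2 stayed between 0.667 and 0.797 over 10 alternatives. PCDHGC3 was at 137, 142 and 125 CPM in the libraries labelled STAG1 KO and at 144 and 126 CPM in controls, with a log2 fold change of −0.0021 (SE 0.104). PCDHGA11 was at 71.3 to 85.5 CPM against 62.0 and 65.5 CPM, with a log2 fold change of 0.28 (SE 0.105, adjusted p = 0.172). Over the tested members 33 fold changes were positive and 8 negative, with a median of 0.35 beside −0.0028 over all genes; the beta median was 0.53 and the beta sum was 151 to 193 CPM against 100.1 and 118 CPM. The summed level of 14 markers of other cell types was 226 to 389 CPM in the libraries labelled STAG1 KO and 135 and 170 CPM in these controls, with 9 of the 14 at 3 counts or fewer in every one of the 5 libraries, and its part in the beta values was not tested.

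Whether the STAG2 and STAG1 effects differed was tested in 1 fit over experiments 1 to 3. Of 42 tested members 4 differed, each lower after STAG2 loss, beside 6.11% of all genes (2.36% higher, 3.75% lower). The difference, STAG2 effect minus STAG1 effect on the log2 scale, was −1.31 for PCDHGA11 (SE 0.188, adjusted p = 0.00125, edgeR), −1.40 for PCDHGC3 (SE 0.239, adjusted p = 0.00351), −1.24 for PCDHGB5 (SE 0.306, adjusted p = 0.0271) and −1.54 for PCDHAC1 (SE 0.422, adjusted p = 0.0451). No beta member differed (0 of 15 called, 3 with an unadjusted p under 0.05, 0 by DESeq2). For PCDHB6 the difference was 0.67 (SE 0.279, adjusted p = 0.195) and for PCDHB16 0.12 (SE 0.480, adjusted p = 0.936). Leaving out the parental library of experiment 3 left 1 of the 4 calls, PCDHGA11. Leaving out the WT clone library of experiment 3 or any one library labelled STAG1 KO left 2, PCDHGA11 and PCDHGC3. The same 2 remained without the first WT clone library of experiment 2. Over all genes 195 were called in the first of these fits and 296 to 656 in the others, against 898 with every library. The 2 experiments with STAG2 KO and the experiment with STAG1 KO have separate controls, and in experiment 3 the controls had PCDHGC3 at 126 and 144 CPM, above the 62.0 to 99.3 CPM of the controls in experiments 1 and 2.

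The Polycomb knockouts were measured in experiment 2, against the same 3 controls as 3 of the STAG2 KO clones. In EZH2 KO 4 of 43 tested members were called, beside 15.7% of all genes (12% higher, 3.69% lower; edgeR over 15130 genes). PCDHGA6 was at 10.9, 7.43 and 10.5 CPM against 18.9 to 26.0 CPM in controls, a log2 fold change of −1.20 (SE 0.221, adjusted p = 0.00392). PCDHGA11 was at 27.3 to 34.8 CPM against 50.8 to 56.7 CPM, a log2 fold change of −0.67 (SE 0.156, adjusted p = 0.0136). PCDHGA2, a low gamma A member, was at 0.575, 0.434 and 0.379 CPM against 0.942 to 1.72 CPM, with −1.33 (SE 0.386, adjusted p = 0.0379). PCDHB6 was higher at 14.7, 11.7 and 14.3 CPM against 7.65 to 9.92 CPM, with 0.68 (SE 0.213, adjusted p = 0.0498), a call missed under 10 of 13 alternative settings, as was that of PCDHGA2. Of the 4, PCDHGA6 alone was called in all 13.

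In SUZ12 KO 6 of 43 tested members were called and all 6 were lower, beside 20.6% of all genes called, 14.7% higher and 5.87% lower. PCDHAC1 was at 1.84, 1.13 and 1.29 CPM against 3.82 to 4.76 CPM (log2 fold change −1.48, SE 0.378, adjusted p = 0.0170, edgeR). PCDHAC2 was at 3.15, 2.39 and 2.63 CPM against 6.12 to 7.20 CPM (−1.20, adjusted p = 0.0434). PCDHGA11, PCDHGA6 and PCDHGB5 had log2 fold changes of −0.66, −0.79 and −0.82, with adjusted p = 0.0111, 0.0248 and 0.0378. The sixth, PCDHGB6, was under 1 CPM in every library of the comparison and is named after its values were seen; it was at 0.242, 0.180 and 0.215 CPM against 0.638 to 0.906 CPM (−1.80, adjusted p = 0.0123). Without the SUZ12 KO library numbered 2 no member was called, without the first WT clone library 1, without the second 3, and without the SUZ12 KO library numbered 3 there were 9. Over all genes the calls were 1971 of 15344, 1874 of 15538, 1907 of 15542 and 3238 of 15506 in these 4 fits, against 3112 of 15130 with every library.

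PCDHGC3 was at 59.0 to 69.3 CPM in EZH2 KO and 56.0 to 69.5 CPM in SUZ12 KO against 62.0 to 97.3 CPM, and was not called in either (log2 fold changes −0.30 and −0.39, adjusted p = 0.261 and 0.129, edgeR). It was called lower in SUZ12 KO with the WT clone as the only control and with clone numbers as a block, and its difference from the STAG2 effect was not tested. Over all tested members the median log2 fold change was −0.46 in EZH2 KO and −0.66 in SUZ12 KO, beside 0.037 and 0.0088 over all genes. These values depend on scaling: with library size alone in place of TMM, the median over all genes moved to 0.196 in EZH2 KO and 0.190 in SUZ12 KO. With that scaling 3 members were called in each, beside 2360 and 3049 of 15130 genes. The summed alpha level was 35.2 to 59.8 CPM in EZH2 KO and 29.2 to 51.6 CPM in SUZ12 KO against 66.7 to 77.1 CPM in controls, and the gamma B sum 20.9 to 31.9 and 19.6 to 32.5 against 45.7 to 52.9 CPM. The summed level of 14 listed markers of other cell types was 395 to 515 CPM in EZH2 KO, 267 to 483 CPM in SUZ12 KO and 333 to 388 CPM in these controls. CTCF mRNA was lower in EZH2 KO (log2 fold change −0.45, adjusted p = 0.0482, edgeR). CTCFL, the germline relative of CTCF, was higher in both Polycomb knockouts (2.16 and 4.46, adjusted p = 0.0488 and 0.00121, edgeR). In STAG1 KO CTCFL was called lower. Their part in the protocadherin values was not tested.

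**Figure D4:**
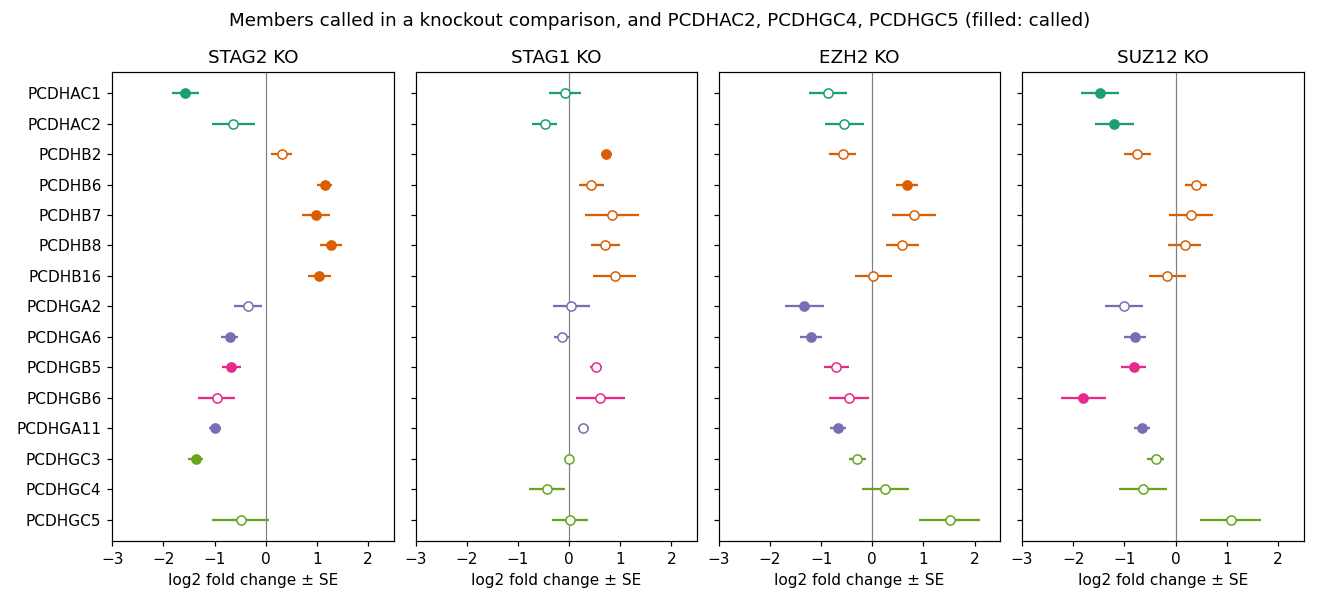
Log2 fold change (horizontal axes, ± SE) in the 4 A673 knockout comparisons for the members called in any of them and for PCDHAC2, PCDHGC4 and PCDHGC5 (filled where called; a missing point was not tested). EZH2 KO, SUZ12 KO and part of the STAG2 KO comparison share 3 control libraries. PCDHGC3 lies at −1.37 after STAG2 loss and near 0 after STAG1 loss.

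The WT clone and the parental cells, both with STAG2, bear on how far a member varies between isolates of A673. Of 41 tested members 2 were called over 3 experiments (2.72% of all genes, 1.76% higher and 0.96% lower). PCDHGB2 was at 2.03, 2.42, 1.47, 1.15 and 2.43 CPM in the WT clone libraries and at 4.72, 3.05 and 5.24 CPM in parental cells (log2 fold change −1.13, SE 0.186, adjusted p = 0.0146, edgeR). PCDHGC3 was higher in the WT clone by 0.41 on the log2 scale (SE 0.0867, adjusted p = 0.0419, edgeR). Both calls were lost without either WT clone library of experiment 2, the parental library of experiment 2 or the first WT clone library of experiment 1. In those fits 98 to 211 genes were called in all, against 385 with every library. With the WT clone as the only control, 7 members were called after STAG2 loss, 2 higher and 5 lower, and 1278 of 13562 genes in all.

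Transient knockdown of STAG2 lowered its mRNA from 992 to 1090 normalised reads in siC to 144.2, 179.9 and 152.6 in siSTAG2. Of the 53 members 12 had a mean of at least 10 and were tested, and 1 was called, beside 20.5% of all genes, 9.54% higher and 11% lower (limma on log2(value + 1), 12060 genes; 3 members at an unadjusted p under 0.05). PCDHB6 was at 12.39, 15.75 and 15.63 in siC and at 19.97, 34.31 and 31.88 in siSTAG2, without overlap, a log2 fold change of 0.90 (SE 0.287, adjusted p = 0.0256, limma). These values rest on 13 to 37 reads per library, and the call was lost without siC 1, siSTAG2 2 or siSTAG2 3. PCDHB2 was at 159.2, 158.4 and 185.4 against 189.7, 229 and 196.1 (0.29, SE 0.109, adjusted p = 0.0640), and PCDHB16 at 61, 59.05 and 71.88 against 66.57, 94.57 and 86.94 (0.36, SE 0.166, adjusted p = 0.138). Among the 7 tested beta members 6 had a positive fold change, with a median of 0.29, beside 0.0067 over all genes. PCDHGA6, the gamma member lower in STAG2 KO that could be tested here, was at 41.94, 38.38 and 30.21 in siC and at 36.61, 34.31 and 39.61 in siSTAG2, with overlap and a log2 fold change of 0.01 (SE 0.214, adjusted p = 0.982, limma). The other 3 gamma members called in STAG2 KO were under the filter. PCDHGC3 was at 0 to 4.17, PCDHGA11 at 0 to 4.17 and PCDHGB5 at 0 to 1.93 normalised reads in the 6 knockdown libraries, although the same 3 genes were the highest per kilobase in the A673 clone libraries. The knockdown table was counted on Ensembl identifiers and the clone tables on symbols, and the cause of this difference was not tested.

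The isogenic pairs had 1 library per arm and thus no replicate check. In SK-N-MC 50 members had at least 10 counts in the pair, and 3 were more than 2-fold higher and 17 more than 2-fold lower in the STAG2 KO clone, beside 10.4% and 11.2% of 16413 genes (21.6% in all). STAG2 mRNA was at 184 CPM in the KO clone and 293 CPM in the wild type. PCDHGC3 went from 26.2 to 4.45 CPM (log2 ratio −2.52), PCDHGB5 from 6.49 to 0.360 CPM (−3.94), PCDHGB2 from 8.92 to 2 CPM (−2.11) and PCDHGA11 from 3.34 to 0.917 CPM (−1.78). PCDHGA6, at 1.88 and 2.26 CPM (0.27), and PCDHAC1, at 1.88 and 1.7 CPM (−0.12), were not past 2-fold. PCDHAC2 was higher in the KO clone, from 2.15 to 5.73 CPM (1.40). Markers of other cell types differed between the same 2 libraries. From wild type to KO, PTPRC went from 99 to 1776 counts, EPCAM from 27 to 286 and CDH5 from 39 to 98. RBFOX3 went from 6 to 72, CDH1 from 0 to 13 and KRT18 from 14066 to 5320. The sum of the 14 listed markers went from 433 to 248 CPM, and CD3E, DES, GFAP, MYOG and TBXT had at most 3 counts in both. The part of these markers in the protocadherin values was not tested. Lower values past 2-fold were counted in 6 of 12 gamma A, 5 of 7 gamma B, 1 of 3 gamma C and 5 of 16 beta members and in 0 of 12 measured alpha members, and the median log2 ratio was −1.43 over gamma B members beside 0.0044 over all genes. The beta members that rose in A673 were lower or near their wild-type level here: PCDHB6 went from 3.49 to 1.80 CPM (−0.91), PCDHB7 from 6.74 to 4.26 CPM (−0.64), PCDHB16 from 33.7 to 27.2 CPM (−0.29) and PCDHB8 from 16 to 17.8 CPM (0.18).

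In A4573 the WT library, without STAG2 protein, was set against STAG2 KI. STAG2 mRNA was at 34.1 and 86.9 CPM. Of 45 members with at least 10 counts 5 were more than 2-fold higher and 2 more than 2-fold lower without STAG2, beside 7.76% and 14.1% of 16124 genes (21.8% in all). PCDHB8 was at 3.75 CPM without and 1.31 CPM with STAG2 (log2 ratio 1.48) and PCDHB7 at 2.16 and 1.05 CPM (0.99). PCDHGC3 was at 36.9 and 33.2 CPM (0.15) and PCDHGB5 at 3.68 and 2.80 CPM (0.39). PCDHAC2 was at 2.22 and 4.84 CPM (−1.10), the opposite direction to SK-N-MC. PCDHGA6 (0.564 and 0.605 CPM), PCDHGA11 (0.199 and 0.191 CPM) and PCDHAC1 (0.332 and 0.127 CPM) rested on 4 to 19 counts in each A4573 library. The median log2 ratio was 0.47 over alpha and over beta members, −0.022 over gamma A and −0.15 over gamma B members, beside 0.0015 over all genes. Markers of other cell types differed in this pair too. Without and with STAG2, EPCAM was at 17 and 63 counts, DES at 35 and 103, RBFOX3 at 810 and 1112 and CDH5 at 10 and 1. The sum of the 14 listed markers was 29.2 and 41 CPM, and its part in the protocadherin values was not tested.

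**Figure D5:**
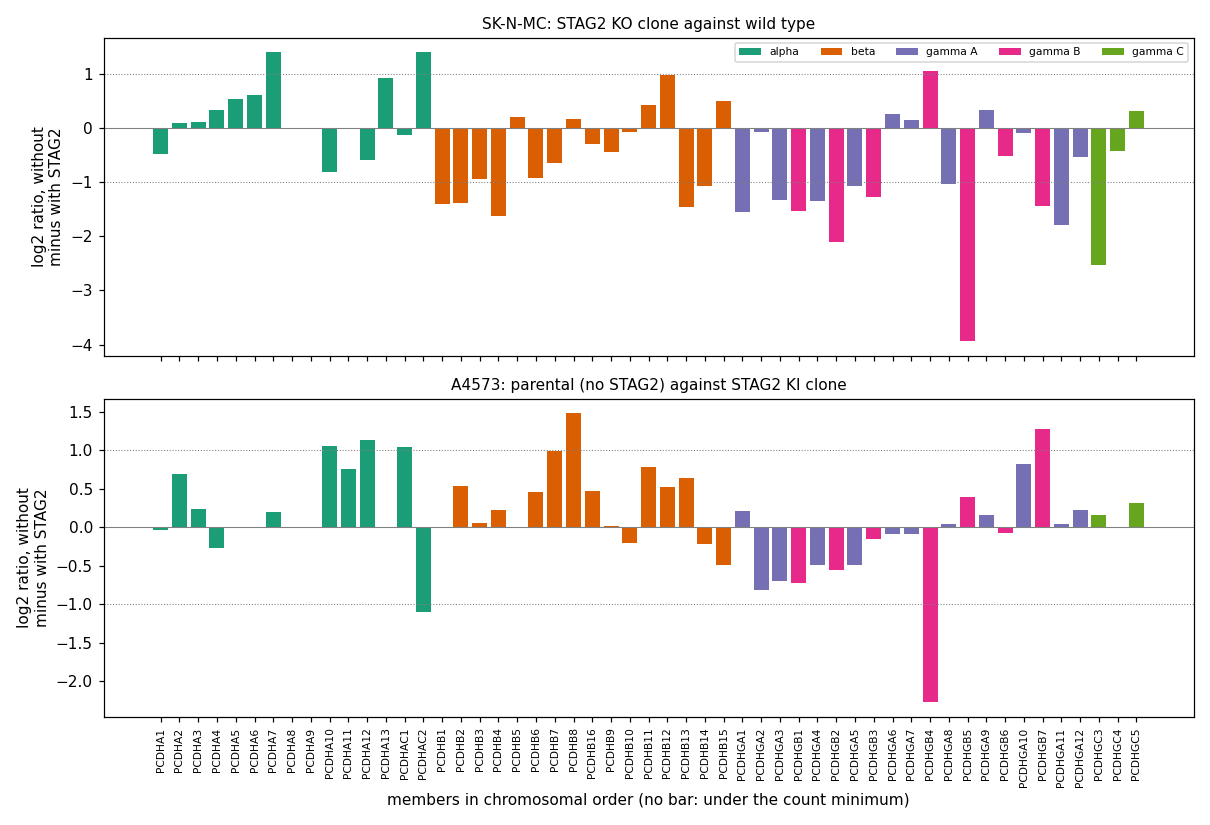
Log2 ratio without STAG2 minus with STAG2 (vertical axes; dotted lines mark 2-fold) for members with at least 10 counts in the pair, in chromosomal order and coloured by subfamily, 1 library per arm. In SK-N-MC most gamma bars point down, with PCDHGB5 at −3.94 and PCDHGC3 at −2.52, and in A4573 PCDHGC3 stands at 0.15.

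Other genes of the pathway and the locus were read from fixed lists after STAG2 loss in A673. Among 15 cohesin and CTCF genes 14 were tested, STAG2 itself fell (log2 fold change −1.81, adjusted p = 0.00424, edgeR) and PDS5B, a cohesin regulator, rose (0.68, adjusted p = 0.00123). Among 23 genes that flank the locus 18 were tested and 2 rose, RELL2 (1.18, adjusted p = 0.0111) and RNF14 (0.43, adjusted p = 0.0113). Among 21 genes of promoter methylation and silencing, all tested, 1 rose, REST, a repressor of neuronal genes (0.46, adjusted p = 0.0414). Among 21 processing enzymes, partners and signalling genes 20 were tested, 1 rose and 3 fell. WASF1, a subunit of the actin-regulating WAVE complex that clustered protocadherins bind, fell by 1.23 on the log2 scale (adjusted p = 0.000266), while ABI1 of the same complex rose by 0.42 (adjusted p = 0.0120). RET, a receptor tyrosine kinase known to bind clustered protocadherins, fell by 4.14 (adjusted p = 0.000148), and NCSTN, a gamma-secretase subunit, fell by 0.35 (adjusted p = 0.0381). Among 10 Ewing sarcoma markers 9 were tested, NR0B1 (0.78) and BCL11B (0.59) rose and PRKCB (−0.97), CCND1 (−0.56) and JAK1 (−0.46) fell. Of 15 markers of other cell types 14 were in the tables, 1 was tested and it was not called. Their summed level was 174 to 388 CPM in the 6 controls and 88.1 to 354 CPM in STAG2 KO, and CD3E, CDH1, DES, GFAP, MYOD1, MYOG, PTPRC, RBFOX3 and TBXT had at most 3 counts in every one of these libraries.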

How the data were processed

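The members, the gene lists and the rules were chosen with earlier results of these data known. For the clone and isogenic libraries the authors deposited raw read counts per gene symbol. Single-end reads had been aligned to hg38; the submitters' notes and the study name TopHat (2.0.0) as the aligner, with Bowtie (0.12.7) and, for file handling, SAMtools (0.1.16). For the knockdown the authors deposited counts divided by size factors per Ensembl identifier, a normalised signal; 100% of its values were whole reads within 0.01 of a read once the factor was recovered, and edgeR on those reads called 2503 of 12199 genes. The counting program and annotation are not given in the sources used here. Some header names of experiments 1 and 3 match a group and not a numbered clone, and those libraries are named by their header numbers.

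Counts were filtered with filterByExpr, scaled by TMM and tested with edgeR 4.0.16 (quasi-likelihood, two-sided; R 4.3.3), Benjamini-Hochberg adjusted over all genes tested, with experiment as a term where it varied; SE is the fold change divided by the square root of F. The knockdown was tested with limma 3.58.1 on log2(value + 1) for genes with a mean of at least 10. DESeq2 1.42.0 was an alternative. The isogenic log2 ratios are of CPM with a prior count of 2. Scripts were tested on simulated data. Named are members called in a replicated comparison with a mean of at least 1 CPM in a group, the leading member of each subfamily and the C-type members. Listed genes are named where called in the main comparison of STAG2 KO with controls. In the other comparisons only some of the listed genes that were called are named. Targeted genes are named always. Other members named with their values were chosen after those values were seen. The 2 WT clone libraries of experiment 1 had a mean chi-square of 1.31 per gene, against 8.82 to 131 for other pairs of a group, and were kept apart. Reads carry no molecular identifiers, so depth speaks to counting error only. A withheld item is not reported here.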

Additional observations from a re-analysis of the deposited data

Results flagged for a closer look

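The effect of STAG2 loss and that of STAG1 loss differed in a test of the difference itself for 4 members (edgeR, 1 fit over experiments 1 to 3). The STAG2 effect minus the STAG1 effect was −1.40 for PCDHGC3, −1.31 for PCDHGA11, −1.24 for PCDHGB5 and −1.54 for PCDHAC1 on the log2 scale, with adjusted p = 0.00351, 0.00125, 0.0271 and 0.0451. Over 20 alternatives PCDHGA11 was called in 20, PCDHGC3 in 19, PCDHGB5 in 14 and PCDHAC1 in 7.

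Among the 5 STAG2 KO libraries, 1 stood far from the others for 2 members, and chance flags about 1 in 20 groups. PCDHA11, an alpha member named here because of this gap, was at 5.01 CPM in the clone numbered 5 of experiment 2 and at 15.5 to 17.6 CPM in the other 4, a gap of 0.836 of the whole range. The same clone was the lowest of the 5 in the summed level of every subfamily, from alpha (57.8 CPM) to gamma A (46.2 CPM) and gamma C (26.5 CPM). PCDHGA6 was at 14.5 CPM in the clone numbered 3 of experiment 2 and at 16.9 to 17.5 CPM in the others, a gap of 0.8 of the range.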

How the results depend on the processing

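No direction of a called member was reversed under any alternative that was run, and the cause of each change below was not tested. Library size alone in place of TMM, and the block over clone numbers in the Polycomb knockouts, were chosen after seeing the data. Numbers in brackets after a count of members are the calls over all genes in the same fits. After STAG2 loss 9 members were called (1687 of 13574) and 3 in experiment 2 alone (494 of 13383). With 1 library left out 7 to 16 were called (1053 to 4048), 16 without the clone numbered 5 of experiment 2. After STAG1 loss 1 was called (757 of 14373) and 2 by DESeq2 (1941 of 16479). In 1 fit over experiments 1 to 3 there were 0 (153 of 14696). With 1 KO library left out 0 to 1 were called (264 to 1310). In EZH2 KO 4 were called (2377 of 15130) and 2 with no filter on low counts (2330 of 22279). With no other KO libraries in the fit there were 8 (3429 of 14262). With 1 library left out 1 to 3 were called (1169 to 1760). The 1, PCDHGA6, was without the first WT clone library or the EZH2 KO clone numbered 2. In SUZ12 KO 6 were called (3112 of 15130), 3 with library size alone (3049 of 15130) and 10 by DESeq2 (4173 of 18460). With no other KO libraries in the fit there were 10 (4378 of 14397). With 1 library left out 0 to 9 were called (1874 to 3238). For the difference between the STAG2 and STAG1 effects 4 were called (898 of 14696), and 1 to 5 with 1 library left out (195 to 1860). WT clone against parental cells gave 2 (385 of 14167) and 0 with no experiment term (5 of 14167). With 1 library left out it gave 0 to 4 (98 to 953), 4 without either library of experiment 3. The knockdown gave 1 (2476 of 12060) and 0 at a mean of at least 50 (2170 of 9274). With 1 library left out it gave 0 to 2 (1750 to 2533). In A4573, 7 members were past 2-fold, and 3 at 50 counts or more in the pair.

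With the replicate number as a block, the knockdown gave 2 calls, EZH2 KO 6 and SUZ12 KO 12. The same fits called 2881 of 12060, 2649 of 15130 and 3620 of 15130 genes in all. Clone numbers in the Polycomb knockouts name separate clones. The knockdown numbers do not pair the samples, since deviations of same-numbered knockdown libraries correlated at 0.0257, 0.0372 and 0.00402. The counts of calls with a block thus say nothing of a stronger or weaker effect. With library size alone the log2 ratio of summed levels was 0.435 for gamma B in STAG1 KO. In EZH2 KO it was −0.413 for alpha, −0.172 for beta, −0.625 for gamma A and −0.565 for gamma B. In SUZ12 KO it was −0.63 for alpha, −0.406 for beta, −0.52 for gamma A and −0.635 for gamma B. Adding up both WT clone libraries of experiment 1 left 7 members called after STAG2 loss, and 1154 of 13411 genes in all. In the knockdown 12 of 53 members passed the filter; members held 0.00756 to 0.0107% of reads there and 0.0244 to 0.0643% of counts in the clone libraries, and the cause was not tested.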

Other observations

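PCDHGC5, a C-type gamma member, was at 2.47 to 3.04 CPM in the 3 EZH2 KO libraries and at 1.5 to 2.52 CPM in the 3 SUZ12 KO libraries, above the 0.886 to 1.15 CPM of their 3 controls, while most other members had negative fold changes there. Its log2 fold changes of 1.51 and 1.08 were not called (adjusted p = 0.111 and 0.227, edgeR), but PCDHGC5 was called higher in both when no other KO libraries were in the fit. In the controls of experiment 3 PCDHGC5 was at 3.15 and 4.71 CPM, so the level in controls differed between experiments by more than it did between these groups.

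PCDHB5, single-exon and the most abundant member per kilobase in SK-N-MC, was listed at 2691 counts in the STAG2 KO clone and 2549 in the wild type of that line, a log2 ratio of 0.20, beside 5 of 16 beta members that were more than 2-fold lower in the same clone.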
